A study of Mus musculus with 6 samples.

Results

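Smooth muscle cells of the P21 mouse lung were picked out of single-cell libraries by counting unique molecular identifiers (UMIs, each marking 1 captured transcript). A barcode, which stands for 1 captured cell, was kept with at least 1500 UMIs in the Bdnf libraries or 700 in the Hgf libraries and at most 25% of UMIs from mitochondrial genes. It had to hold a UMI of at least 3 of 5 smooth muscle genes, namely Myh11 (smooth muscle myosin heavy chain), Cnn1 (calponin), Actg2 (enteric smooth muscle actin), Des (desmin) and Lmod1 (leiomodin). It could hold at most 1 UMI over Hhip, Aspn, Higd1b and Kcnk3, genes of alveolar myofibroblasts and pericytes, and at most 1 over Cldn5, Tie1, Ptprc, Etv5 and Rtkn2, genes of endothelial, immune and alveolar epithelial cells. This left 130 cells of 70426, or 0.185%, and these measured values chose them, so the levels of the genes in the rule are a description.

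The series holds 6 BD Rhapsody whole-transcriptome libraries, of which the 4 from lung were used here, each made from 2 pooled littermates of 1 genotype. The controls were Bdnf lox/lox and Hgf lox/lox mice, and their mutant littermates are called Bdnf iPCKO and Hgf iPCKO. The iPCKO mice carry the conditional alleles together with Pdgfrb(BAC)-CreERT2, a recombinase under the promoter of the PDGF receptor beta gene that is active in mural cells, and the controls do not carry it. All mice received 50 µg of tamoxifen on each of P1 to P3, and CD45+ cells and erythrocytes were depleted from the digested lungs. With 1 library per genotype there is no replicate and no test, the sex of the mice is not given in the sources used here, and every interval below covers counting error only and not the difference between mice.

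Smooth muscle cells ring the airways and the larger vessels of the lung and set their diameter. Actin and myosin filaments slide past each other when calcium and calmodulin switch on the myosin light chain kinase, and nitric oxide and cyclic nucleotides relax the cell. Many of their contractile genes are switched on by serum response factor with its partner myocardin, which bind a short DNA element called the CArG box, and the cells also lay down the elastin sheets of the vessel wall.

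CArG boxes are shown first because the genes of the contractile lists, which the rule did not use, are followed through the results. The element was searched as CC, 6 bases of A or T, then GG, which reads as the same pattern on both strands, in 300-base windows around gene starts (250 bases before to 50 after) of the RefSeq promoter table. It occurred in 10 of 40 genes of the contractile lists that had a promoter in the table, or 25%, beside 488 of 27025 genes, or 1.81%, over the whole table. The 10 genes were Cnn2, Acta1, Actc1, Myl9, Myl6, Vcl, Fhl1, Fhl2, Ldb3 and Dmd. With 1 of the 6 middle letters allowed to be C or G the shares were 37.5% and 11.3%, and Acta2 was among those added. None of the 3 rule genes with a promoter in the table held a box. A match describes letters in a window and not binding. The boxes of 4 genes whose levels are described below follow on their sense strand, with the 10 letters of the box in capitals. The table was made on GRCm38.p6, and the positions come from an exact match to GRCm39. The start meant is that of the promoter table and can differ from the end of the gene positions given below. The Actc1 and Acta2 stretches lie inside those positions.
Actc1, box 37 bases before the start, chr2:113883384-113883413, minus strand: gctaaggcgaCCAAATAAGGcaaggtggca
Myl9, box 151 bases before the start, chr2:156617213-156617242, plus strand: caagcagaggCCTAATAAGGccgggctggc
Myl6, box 40 bases before the start, chr10:128328909-128328938, minus strand: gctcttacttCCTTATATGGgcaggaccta
Acta2, 1 letter off, 74 bases before the start, chr19:34232838-34232867, minus strand: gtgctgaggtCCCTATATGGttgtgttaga
Acta2, 1 letter off, 24 bases before the start, chr19:34232788-34232817, minus strand: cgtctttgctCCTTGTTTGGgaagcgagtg

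The cells numbered 25 in the Bdnf control, 71 in the Bdnf iPCKO, 16 in the Hgf control and 18 in the Hgf iPCKO library. They made up 0.149% (exact binomial 95% interval 0.0966 to 0.22) of 16748 barcodes past the depth and mitochondrial limits, 0.299% (0.233 to 0.377) of 23765, 0.114% (0.0649 to 0.184) of 14095 and 0.114% (0.0675 to 0.18) of 15818. The share was higher in the Bdnf iPCKO than in the Bdnf control library, and without the limit on Hhip, Aspn, Higd1b and Kcnk3 these 2 shares were 1.34% and 1.38%. The equal shares of the 2 Hgf libraries held for the rule as written. With at least 4 of 5 muscle genes they were 0.078% and 0.0126% (11 and 2 cells), with at least 2 they were 0.192% and 0.284%, and without the limit 0.532% and 0.247%. Of the barcodes past the depth and mitochondrial limits, 286, 422, 93 and 49 held 3 or more muscle genes, and 34, 94, 18 and 21 of these stayed within the limit on the 4 genes. Of the 683 barcodes over it, 543 held 2 or more UMIs of Aspn (asporin), 315 of Kcnk3 (a potassium channel) and 220 of Hhip. Those that were over it and held at most 1 UMI of the endothelial, immune and epithelial genes, 199, 258, 59 and 21 barcodes, are called set-aside barcodes below and serve as a comparison.

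**Figure D1:**
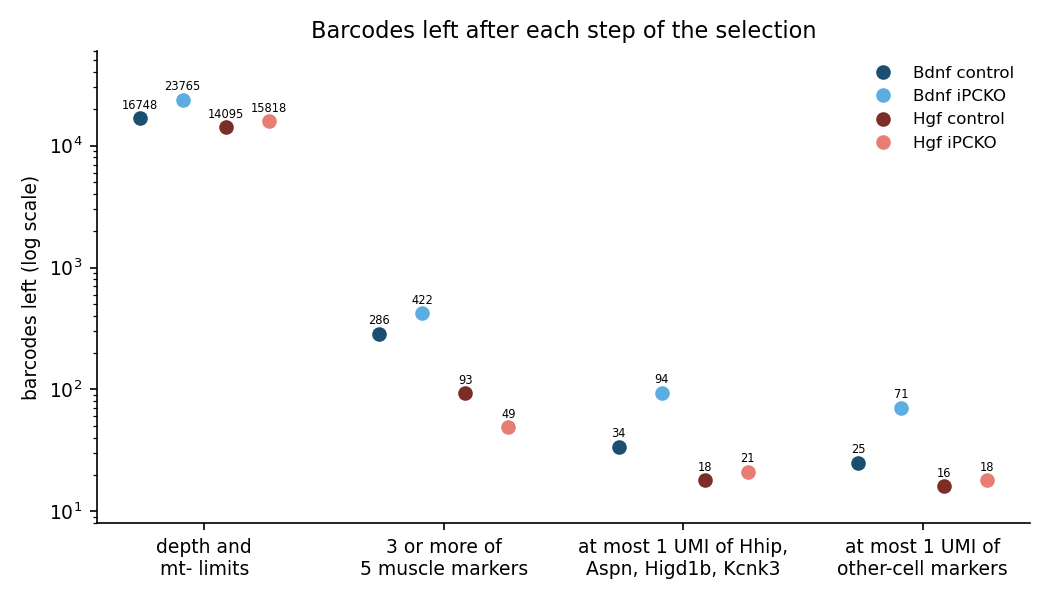
Barcodes left in each lung library (points) after each of 4 steps of the selection, on a log scale. The limit on Hhip, Aspn, Higd1b and Kcnk3 takes the count from 286 to 34 in the Bdnf control library and from 49 to 21 in the Hgf iPCKO library, and 25, 71, 16 and 18 cells remain at the end.

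The cells had a median of 3419, 3259, 1919 and 2018 UMIs, in the same order of libraries as above. The medians were 7197, 5093, 3990 and 2863 for all other barcodes past the limits, 4421, 4322, 2720 and 2141 for set-aside barcodes, and 3186, 2768, 1670 and 1531 for pericytes chosen from the same libraries by their own markers. A median cell held 1701, 1678, 1164 and 1220 genes, and the medians of the mitochondrial share were 11.8%, 10.9%, 11.9% and 8.9%. All smooth muscle cells of a library together held 91398, 277606, 40617 and 35339 UMIs, and levels are given below as CPM, the UMIs of a gene scaled to a common total of these. No cell barcode was shared between libraries among the 130 cells. Markers per cell differed: 10 of 25 cells of the Bdnf control library held all 5 genes, while in the Hgf iPCKO library 16 of 18 cells held just 3. At the edge of the rule, 8, 25, 11 and 27 barcodes held 2 muscle genes, with Acta2 at 926, 1090, 5491 and 2284 CPM, beside 6490, 5158, 7740 and 4316 CPM in cells with 3. Barcodes with 2 UMIs of the 4 limited genes, 1 too many, held Acta2 at 7454, 8642, 12215 and 5598 CPM.

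Contractile genes that the rule did not use were abundant in the cells. Acta2 (smooth muscle alpha-actin; chr19:34217737-34232990 of GRCm39) stood at 10493, 8390, 12285 and 4556 CPM, against 67.5 to 417 CPM in the pericytes and 69.6 to 221 CPM in myofibroblasts chosen in the same way. Over the 4 libraries its log2 ratio lay between 4.88 and 7.28 against pericytes and between 4.36 and 7.46 against myofibroblasts. Tagln (transgelin, an actin-binding protein) stood at 6598, 5076, 7115 and 4924 CPM, and the ratio was 3.44 to 5.76 against pericytes and 4.52 to 5.95 against myofibroblasts. Both genes were higher in smooth muscle cells than in either comparison type in every library. Tpm2 (tropomyosin, which lies along the actin filament) was measured at 2856, 2010, 2142 and 1471 CPM, and Myl9 (the regulatory light chain of myosin) at 2330, 2053, 2511 and 877 CPM. Flna (filamin A, an actin crosslinker) ranged from 1896 to 3009 CPM and Csrp1 (a LIM protein of smooth muscle) from 1783 to 2117 CPM. Pericytes, by contrast, held Flna at 272 to 561 CPM and Csrp1 at 144 to 304 CPM. Mylk, which encodes the myosin light chain kinase, stood at 1816, 1344, 1453 and 2320 CPM. Marker genes chose all 3 kinds of cells, so these differences are descriptions. Pericytes could hold at most 1 UMI over Myh11, Cnn1 and Actg2, and myofibroblasts fewer than 3 of the 5 muscle genes. Barcodes rich in muscle genes were thus left out of both in advance. The myofibroblast pool also held fibroblast genes. Its 10 adventitial fibroblast markers summed to 15526, 8920, 25719 and 5684 CPM, beside 8148, 9199, 5512 and 11884 CPM for its 10 myofibroblast markers.

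**Figure D2:**
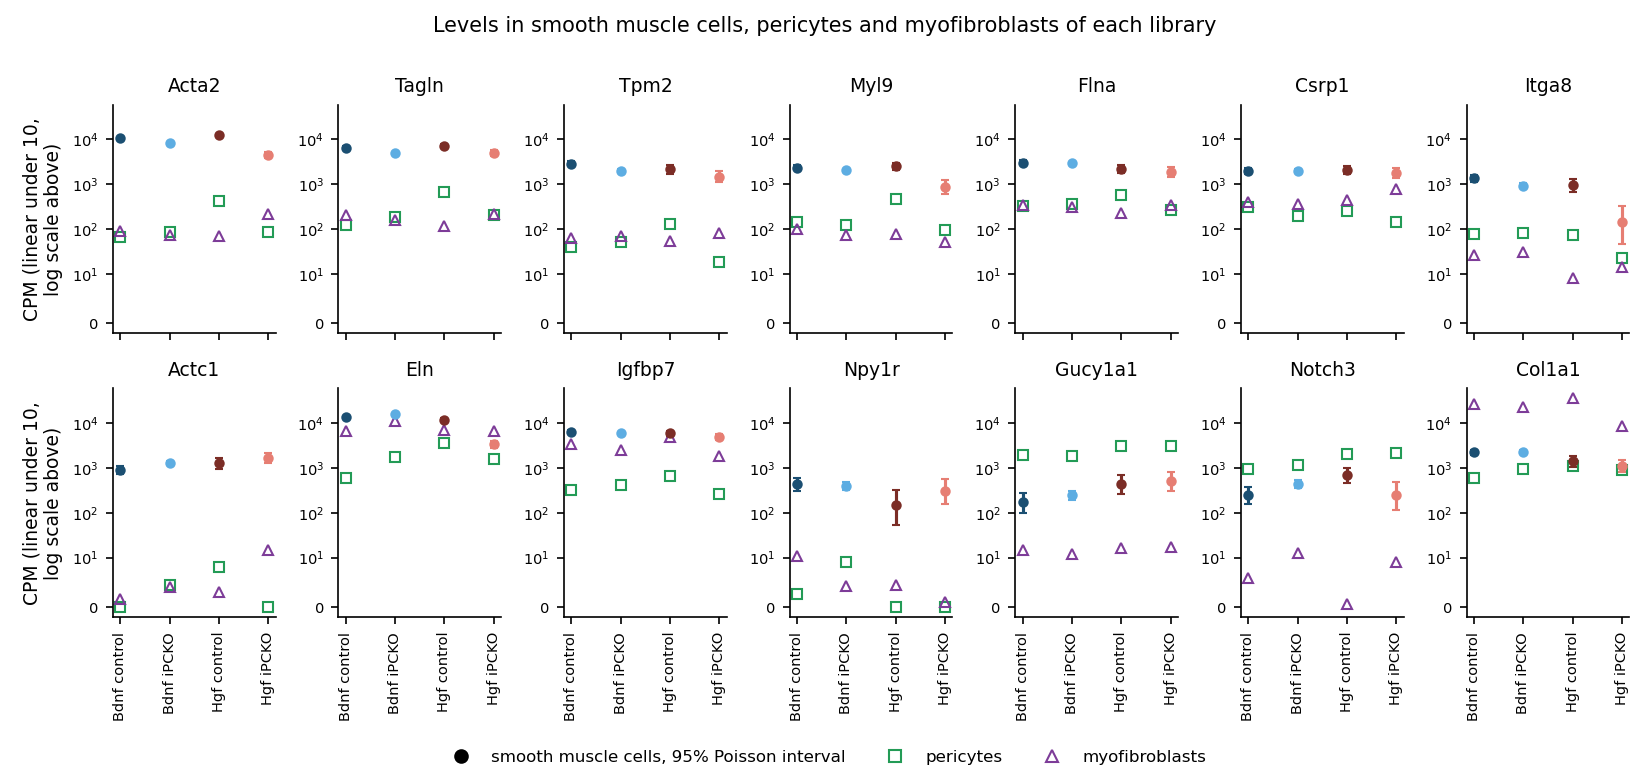
CPM of 14 genes (linear under 10, log scale above) in the smooth muscle cells of each library (filled points, bars are exact Poisson 95% intervals), with pericytes (open squares) and myofibroblasts (open triangles). Acta2, Tagln, Tpm2 and Actc1 lie far above both other types in every library, Gucy1a1 and Notch3 lie below pericytes and above myofibroblasts, and Col1a1 lies below myofibroblasts.

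Actc1 (cardiac alpha-actin; chr2:113876266-113884043) ranked first among genes higher than in myofibroblasts and second among those higher than in pericytes. It stood at 908, 1326, 1305 and 1698 CPM, and at most at 8.02 CPM in pericytes, 15 CPM in myofibroblasts and 8.34 CPM in barcodes of 10 to 100 UMIs, which hold free RNA and no cell. Pericytes of the Bdnf control and Hgf iPCKO libraries had no Actc1 UMI. The 10 cardiac muscle markers, Actc1 included, summed to 1050, 1484, 1305 and 1726 CPM, and 5 of them were at 0 in all libraries. Npy1r, a receptor of neuropeptide Y, was at 438, 403, 148 and 311 CPM and at or under 10.9 CPM in both comparison types. Pi15, a secreted peptidase inhibitor, was at 849 to 1379 CPM against at most 24.1 CPM in pericytes, 86.6 to 420 CPM in myofibroblasts and 438 to 1210 CPM in the set-aside barcodes. Genes were also counted whose interval excluded a ratio of 1 in the same direction in all 4 libraries. Without mitochondrial genes, repeated or predicted symbols and the genes that chose the cells, 177 were higher and 184 lower than in pericytes. Against myofibroblasts 141 were higher and 128 lower. With all genes counted, those that chose the cells included, the numbers were 195 and 192 against pericytes and 170 and 133 against myofibroblasts. No share of the genes compared is given.

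The genes lowest against pericytes included receptors and enzymes that mark capillary pericytes. Pdzd2, a PDZ domain protein, stood at 87.5, 122, 49.2 and 28.3 CPM beside 3844, 3326, 6423 and 3756 CPM in pericytes. Agtr1a, the angiotensin II receptor, gave 1 UMI in all 130 cells, in the Bdnf iPCKO library. Adcy8, an adenylate cyclase, gave none. Gucy1a1, a subunit of the guanylate cyclase that senses nitric oxide, was present but lower, at 175, 245, 443 and 509 CPM against 1843 to 3119 CPM, but it is 1 of the 6 genes that chose the pericytes, so that order was set by the choice. Notch3, a mural cell receptor, lay between the types at 252, 443, 689 and 255 CPM, below pericytes at 966 to 2170 CPM and above myofibroblasts at 12.5 CPM or less.

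Against myofibroblasts, a pool that also held fibroblast genes, the lowest genes were those of fibrillar matrix. Col1a1, a chain of collagen I, stood at 2254, 2327, 1403 and 1132 CPM beside 27197, 23378, 36847 and 8646 CPM. Dcn (decorin) gave 21.9 and 25.2 CPM in the 2 Bdnf libraries and no UMI in either Hgf library, and Pdgfra, the receptor that marks fibroblasts, gave 10.9 and 10.8 CPM and none. Elastin did not follow the collagens. Eln (chr5:134731445-134776322) stood at 14081, 15784, 11719 and 3452 CPM, above 594 to 3660 CPM in pericytes, and its log2 ratio to myofibroblasts ran from -0.93 to 1.05. Igfbp7, an IGF-binding protein of vessel walls, was at 6488, 6142, 6032 and 5009 CPM and above both types in every library.

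Signalling genes were sparse at this depth. Myocd (myocardin) gave 22, 51, 6 and 1 UMIs, or 241, 184, 148 and 28.3 CPM, and Srf gave 2, 4, 1 and 0 UMIs. Kcnmb1, the smooth muscle subunit of the calcium-activated potassium channel, was at 186, 130, 246 and 28.3 CPM, against 32.1 CPM or less in pericytes and 1.07 CPM or less in myofibroblasts. Atp2a2, the calcium pump of the sarcoplasmic reticulum, was at 558, 465, 542 and 623 CPM. Among receptors of contraction, Chrm2 (muscarinic) gave 7, 8, 2 and 2 UMIs and Ednra (endothelin) 8, 15, 8 and 11. Lgr6, a Wnt pathway receptor, gave 10, 28, 5 and 3 UMIs in smooth muscle cells and none in the pericytes of any library.

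The gene Or5m3b is annotated as an olfactory receptor and ranked among the highest genes against pericytes, at 7863, 9576, 2896 and 6204 CPM. Its estimated counts were fractional, which arises where reads that match several places are shared out, so the identity of that transcript is uncertain.

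Within the smooth muscle cells Actc1 was concentrated in a minority. Cells with 5 or more Actc1 UMIs numbered 4 of 25, 19 of 71, 3 of 16 and 5 of 18, and these held 90.4%, 89.9%, 69.8% and 75% of the Actc1 UMIs of their library. Another 16, 38, 5 and 7 cells held none. The counts were not set to a common depth, and the Hgf cells were shallower. In the Bdnf libraries the Actc1-rich cells held less elastin than the cells without Actc1: Eln was 7559 against 16678 CPM in the control and 10987 against 19720 CPM in the iPCKO library. In the Hgf iPCKO library the order was the same, at 1075 against 7263 CPM, and in the Hgf control library it was the opposite, at 18262 against 10217 CPM over 3 and 5 cells. Desmin was 995 against 297 CPM in the Bdnf control library and 480 against 160 CPM in the Bdnf iPCKO library, and the order was the opposite in the Hgf control (174 against 538 CPM) and Hgf iPCKO libraries (293 against 427 CPM). Mustn1, a small nuclear protein of muscle, was likewise higher in the Actc1-rich cells of the Bdnf libraries, at 4045 against 1188 CPM and at 1740 against 980 CPM, and lower in those of the Hgf libraries, at 1652 against 2796 CPM and at 684 against 3133 CPM.

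**Figure D3:**
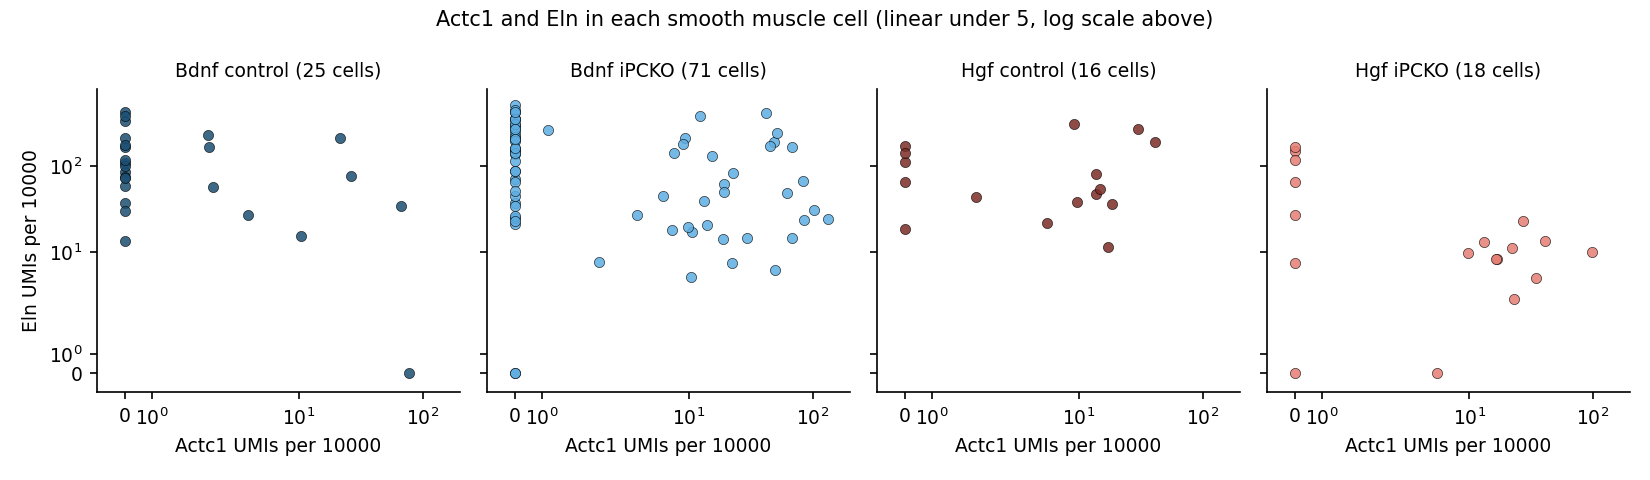
Actc1 (x axis) and Eln (y axis) UMIs per 10000 in each smooth muscle cell of the 4 libraries (linear under 5, log scale above), 1 point per cell. At 0 on the x axis stand 16, 38, 5 and 7 cells, with Eln over a wide range, and in the Hgf iPCKO library every cell with Actc1 lies low in Eln.

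With the 2 Bdnf libraries summed, 10 of the 18 listed elastic fibre genes had at least 50 UMIs over the Actc1-rich cells and the cells without Actc1. Their median log2 ratio was -0.89, 8 lay below 0, and 4 (Fbln5, Ltbp1, Mfap4 and Mfap5) were lower by a fold of 2 or more, while Loxl1 and Ltbp4 lay above 0. Over all 933 genes with that many UMIs the median was 0.01, 459 lay below 0 and 3.54% were lower by that fold. Mfap4 (a microfibril protein) stood at 159 against 798 CPM, a log2 ratio of -2.33 (-3.23 to -1.54), and Fbln5 (fibulin 5) at 170 against 503 CPM, a log2 ratio of -1.56 (-2.45 to -0.78). Mfap5, another microfibril protein, gave no UMI against 286 CPM. Igfbp5, an IGF-binding protein, ranked first in the other direction, at 659 against 143 CPM (log2 2.2, interval 1.55 to 2.88). Genes of other cell types moved with the split. Cxcl15, Sftpa1 and Slc34a2 of alveolar type 2 cells were higher in the Actc1-rich cells (log2 1.96, 1.66 and 1.59), and Scgb1a1 and Scgb3a2 of club cells, Lyz2 and the mural gene Rgs5 were lower (-2.88, -3.86, -2.16 and -3.08). These are ratios over both libraries, and few cells carried many of such UMIs. In the Bdnf iPCKO library a single Actc1-rich cell held 270 Sftpc UMIs, while a single cell without Actc1 held 360. Another cell without Actc1 held 852 Scgb1a1 UMIs. Cells without Actc1 there held 44, 20 and 18 Rgs5 UMIs. In the Bdnf control library alone Cxcl15 stood at -0.99, Slc34a2 at 0.01, Scgb1a1 at 0.48, Scgb3a2 at 3.59 and Lyz2 at 0.42, and neither set of cells held an Rgs5 UMI. Their part in the elastic fibre difference was not tested. The cells were split by a measured gene, and these ratios are a description without a test.

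A list of vascular genes and a list of airway and visceral genes did not divide the cells. By 2 or more UMIs of 1 list and none of the other, 7, 16, 2 and 3 cells were vascular only and no cell was airway only, while 11, 42, 11 and 10 cells held both. Actc1 gave 70.9% to 85.7% of the UMIs of the airway list, and Mustn1 gave 35.2% to 48.8% of those of the vascular list. Unsupervised clusters of the Bdnf cells, 4 in number, each held cells of both genotypes (5 and 18, 6 and 16, 8 and 22, 6 and 15). The first of them was led by Scgb3a2 and Scgb1a1, with Sftpa1, Sftpc, Sftpb, Slc34a2 and Lyz2 also among its 10 leading genes, and the other 3 by Hspb1, Gpc3 and Mfap4. The Hgf cells fell into 3 clusters that followed the libraries: 9 control cells and 1 iPCKO cell led by Notch3, 7 control cells led by Lyz2, Sftpc and Cxcl15, and 17 iPCKO cells led by Mt2, Mt1 and Glul. Genes of alveolar type 2 cells, club cells and macrophages thus led 1 cluster of each pair. Leading genes were ranked on UMIs summed over a cluster, so a few cells can set them. A single Hgf control cell held 96.8% of the Sftpc UMIs of its library. In the Bdnf iPCKO library a single cell held 90.1% of the Scgb3a2 and 77.2% of the Scgb1a1 UMIs.

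The set-aside barcodes held contractile genes too, at levels that differed by library. Acta2 there was 4623, 6131, 11851 and 5547 CPM and Actc1 436, 558, 1938 and 1632 CPM, and Eln was 11462, 19228, 12717 and 11900 CPM. In the Bdnf control library the smooth muscle cells stood above them by a log2 ratio of 1.18 for Acta2, 1.23 for Tpm2, 1.06 for Actc1 and 1.32 for Cnn1, while the Acta2 ratio was 0.45, 0.05 and -0.28 in the other libraries. The set-aside barcodes outnumber the smooth muscle cells in each of the 4 libraries, so a result is given in both below where it bears on a difference.

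Transcripts of other cell types were measured by summed marker lists. The summed level of 10 endothelial markers was 197 to 481 CPM, that of 10 myofibroblast markers 148 to 623 CPM and that of 5 erythroid markers 0 to 28.3 CPM, with 2 of the 5 at 0 in all libraries. The 12 pericyte markers summed to 722, 1164, 1551 and 1443 CPM. The rule itself limited some of these genes. Cldn5 and Tie1 are in the endothelial list, Hhip and Aspn in the myofibroblast list, and Higd1b and Kcnk3 in the pericyte list. Etv5 and Ptprc are in the alveolar type 2 and immune lists below. Their part of each sum was thus held low by the selection. The 10 matrix fibroblast markers summed to 2582, 2295, 1526 and 2518 CPM over many cells, with 10 or more UMIs in 9 of 25 and 31 of 71 Bdnf cells. In barcodes of 10 to 100 UMIs the same markers summed to more in every library, at 3917, 3908, 2749 and 3268 CPM. Limch1, Fmo2, Macf1 and Mfap4 gave most of that sum, Col13a1 gave 1 UMI in all, and Slc7a10 and Wnt2 were at 0. The 10 alveolar type 2 markers summed to 1214, 4758, 19770 and 764 CPM and the 8 airway epithelial markers to 744, 4953, 689 and 3820 CPM. In the Hgf control library 1 cell held 364 Sftpc UMIs, 96.8% of the Sftpc of its smooth muscle cells, and in the Bdnf iPCKO library 3 cells with 100 or more UMIs of Sftpc and Scgb1a1 held 80.1% of the Sftpc and 77.5% of the Scgb1a1. The 10 immune markers, 5 of them at 0 in all libraries, summed to 317, 618, 7017 and 141 CPM. A doublet caller, used as an alternative, marked 2 of 25, 4 of 71, 0 of 16 and 1 of 18 cells.

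The deleted genes were close to absent from these cells. Bdnf (chr2:109505045-109557475), which encodes a neurotrophin, gave 3, 4, 0 and 3 UMIs. That is 32.8 CPM (exact Poisson 95% interval 6.77 to 95.9) in the Bdnf control and 14.4 CPM (3.93 to 36.9) in the Bdnf iPCKO library, beside 32.4 and 28.4 CPM in barcodes of 10 to 100 UMIs of these libraries. The log2 ratio of -1.19 had an interval from -3.75 to 1.58, so no difference was detectable at this depth. In the set-aside barcodes Bdnf was 65.7 and 43.9 CPM, a log2 ratio of -0.58 (-1.11 to -0.05). Hgf (chr5:16758041-16828178), the hepatocyte growth factor, gave no UMI in any of the 130 cells, and a count of 0, taken as 3 at most, allows up to 12%, 4.23%, 18.8% and 16.7% of the cells to hold 1, with exact binomial upper limits of 13.7%, 5.06%, 20.6% and 18.5%. These limits are on cells with a UMI at this depth and not on cells that express the gene. In pericytes of the Hgf libraries it was 136 and 18.7 CPM, a log2 ratio of -2.86 (-4.49 to -1.45). A 3' tag may lie outside the deleted exon, and where it does the counts check nothing.

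Pdgfrb, whose promoter drives the recombinase, gave 6, 35, 3 and 14 UMIs, or 65.6, 126, 73.9 and 396 CPM. The log2 ratio was 0.94 (-0.32 to 2.48) in the Bdnf pair and 2.42 (0.58 to 4.86) in the Hgf pair, both under 50 UMIs. It was 1.88 and 1.63 in pericytes and 1.6 and 2.33 in all other barcodes. The iPCKO mice carry a transgene built on this gene, and its transcripts and those of the native gene cannot be told apart here. Among receptors of the deleted ligands, Ntrk2, the receptor of BDNF, gave 2, 3, 0 and 0 UMIs and Met, the receptor of HGF, 0, 3, 1 and 0. Ntrk3, the receptor of neurotrophin 3, gave 18, 50.5, 5 and 1 estimated UMIs, and Ntf3, its ligand, gave 18, 22, 2 and 2.

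The Bdnf pair asked whether smooth muscle cells differ where Bdnf was targeted in mural cells. The paper names recombination in vascular smooth muscle as a limitation of its mouse line. A gene was counted as past the fold at a log2 ratio of 1 or more, or -1 or less, among 1196 genes with at least 50 UMIs over both libraries. In the iPCKO library 66 genes were higher, 5.52% of those tested, and 12 lower, 1.0%, and the median ratio was 0.01. Immediate-early genes, the transcription factors and regulators that cells switch on within minutes of a stimulus, made up 9 of the 66. Of 12 tested genes of that list 9 were past the fold upward and none downward, all 12 ratios lay above 0, and their median was 1.57.

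Fos (chr12:85520658-85524047) gave 113 UMIs, or 1236 CPM, in the control and 1201 UMIs, or 4326 CPM, in the iPCKO library, a log2 ratio of 1.81 (1.53 to 2.1). Egr1 stood at 49 and 532 UMIs (1.84, interval 1.41 to 2.29), Junb at 7 and 112 (2.4, 1.31 to 3.74) and Nr4a1 at 23 and 222 (1.67, 1.05 to 2.36). Fosb, Ier2, Dusp1, Btg2 and Klf6 were the other 5. The summed list per cell had a median of 36.6 UMIs per 10000 in the control (lowest 5.75, highest 274) and 63.4 in the iPCKO library (lowest 4.83, highest 756), so the cells of the 2 libraries overlapped. The Hgf libraries, by comparison, had medians of 66.7 and 52.4.

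The direction depended on which muscle-marked barcodes were counted. For the same 12 genes the median log2 ratio was -0.37 in set-aside barcodes, with 2 genes above 0 and 10 below, and 0.06 in myofibroblasts. It was 1.51 in pericytes, with 10 genes past the fold, 0.39 in all other barcodes and 0.3 in barcodes of 10 to 100 UMIs. The pericytes of the Bdnf control and iPCKO libraries also differed in markers of other cells. Alveolar type 2 markers summed to 1995 and 16018 CPM in them and airway epithelial markers to 3701 and 6969 CPM. Glia and neuron markers went the other way, at 2266 and 747 CPM, and the part of these differences was not tested. Fos itself was 7066 and 5726 CPM in set-aside barcodes of the Bdnf control and iPCKO libraries. Without the limit on Hhip, Aspn, Higd1b and Kcnk3, which pools set-aside barcodes and smooth muscle cells, the Fos ratio was -0.26.

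**Figure D4:**
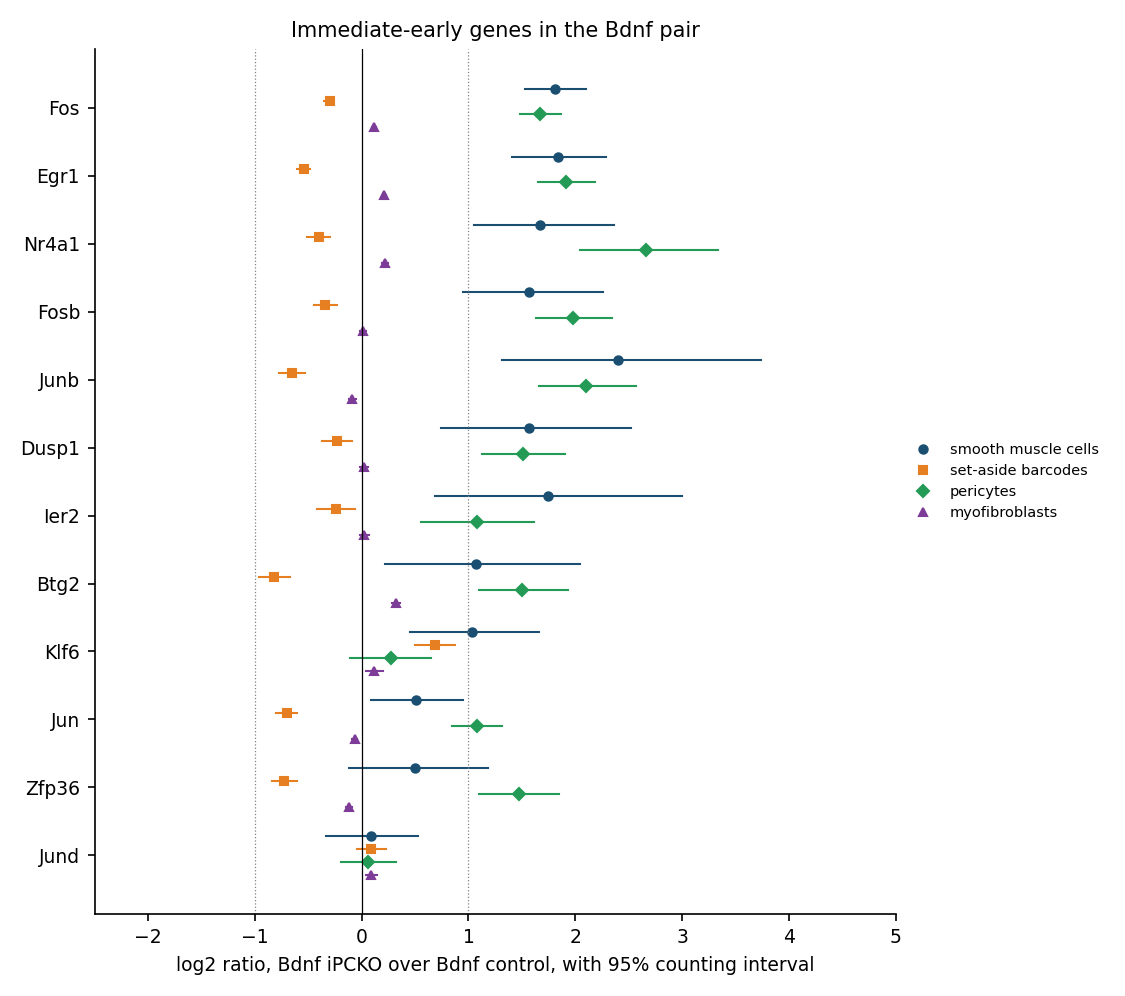
Log2 ratio of Bdnf iPCKO over Bdnf control for the 12 immediate-early genes tested, with conditional exact 95% intervals, in smooth muscle cells, set-aside barcodes, pericytes and myofibroblasts. Dotted lines mark the fold of 2. Ratios in smooth muscle cells and pericytes lie above 0, those of myofibroblasts near 0, and 10 of 12 in set-aside barcodes below 0.

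Rgs5, a brake on G-protein signalling that marks mural cells, showed a large ratio that few cells carried. It gave 1 UMI in the control and 110 UMIs in the iPCKO library, or 10.9 and 396 CPM, a log2 ratio of 5.18 with an interval from 2.67 to 10.5. Of the 110 UMIs, 74.5% came from 3 cells with 44, 20 and 18. The Hgf control and iPCKO libraries held 345 and 396 CPM, so the Bdnf control library was the lowest of the 4. The ratio was 0.37 in set-aside barcodes and 1.63 in pericytes. The 12 pericyte markers, Rgs5 among them, summed to 722 and 1164 CPM in the 2 libraries, and their part in the result was not tested. Notch3 was 252 and 443 CPM, a log2 ratio of 0.82 (0.17 to 1.53), short of the fold.

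Epithelial genes were among those with high ratios in the pair. The secretoglobins of club cells, Scgb3a2 and Scgb1a1, had log2 ratios of 4.65 and 2.89, and the surfactant genes Sftpc and Sftpa1 had 2.14 and 2.2. Of 5 tested alveolar type 2 markers all 5 were past the fold. When the 3 iPCKO cells with 100 or more UMIs of Sftpc and Scgb1a1 were left out, a choice made after the data were seen, the Sftpc ratio was -0.07, and 1 marker was still tested and was not past the fold. A single iPCKO cell held 90.1% of the Scgb3a2 and 77.2% of the Scgb1a1 UMIs of its library. Without the 3 cells Scgb1a1 stood at 0.85, and neither of the 2 airway markers still tested was past the fold.

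Other genes named by rank in the higher direction were Gpc3 (glypican 3), with 4 and 78.5 estimated UMIs and a log2 ratio of 2.69 (1.27 to 4.59), Slc34a2, a phosphate carrier of alveolar type 2 cells, at 2.23 (1.14 to 3.58), and Rasl11b, a small GTPase, at 2.17 (1.08 to 3.53). Leaving out the single cell with most UMIs took Gpc3 to 1.16 and left Rasl11b at 2.07. In the secreted and matricellular lists Ccn1 (26 and 221 UMIs, log2 1.48), Thbs1 (19 and 136, 1.24), Tgfb2 (17 and 120, 1.22) and Igfbp4 (4 and 49, 2.01) were past the fold. Each of the 4 fell short of the upward fold under at least 1 other selection, and all but Tgfb2 turned direction under one. Thbs1 stood at 0.45 without its top cell and at -0.36 with at least 4 of 5 muscle genes, Ccn1 at -0.17 without the limit on Hhip, Aspn, Higd1b and Kcnk3, and Igfbp4 at -1.04 with at least 2 of 5. Tgfb2 stood at 1.13 without the limit and at 0.62 with 0 UMIs of both limited sets. Regulators past the fold were Klf4 (1.04), which represses contractile genes, and Tead1 (1.15), a factor of the Hippo pathway, with ratios of -0.33 and 0.07 without the limit.

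The 12 genes ranked lowest were S100a6, Dmpk, Nrp1, Ltbp1, Ogn, Cdo1, Ppp2r1a, Prss23, Hsp90b1, Nap1l1, Crispld2 and Cped1. S100a6, a calcium-binding protein, gave 111 and 157 UMIs, or 1214 and 566 CPM, a log2 ratio of -1.1 (-1.46 to -0.74). Dmpk, a kinase of muscle, gave 44 and 58 UMIs (-1.2, -1.79 to -0.6), and Nrp1, a co-receptor of VEGF and semaphorins, gave 24 and 28 (-1.38, -2.22 to -0.53). Ltbp1, which stores latent TGF-beta in the matrix, had a ratio of -1.1 and of -0.52 without its top cell. None of S100a6, Dmpk, Nrp1 and Ltbp1 was past the fold in set-aside barcodes, where the ratios were 0, 0.15, -0.44 and 0.23.

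Among contractile genes of the Bdnf pair, Myl12a, a regulatory light chain of myosin, was past the fold upward, at 24 and 147.7 estimated UMIs and a log2 ratio of 1.02 (0.39 to 1.71). Of 36 tested genes in the 3 contractile lists none was past the fold downward, 22 ratios lay below 0, and the median was -0.2 beside 0.01 over all genes. Acta2 had a log2 ratio of -0.32 (-0.43 to -0.21), Tagln -0.38 (-0.52 to -0.24) and Tpm1 -0.49 (-0.67 to -0.31). These intervals exclude 0 but cover counting error only. In set-aside barcodes the same 3 genes had ratios of 0.41, 0.22 and 0.28, the opposite sign. Eln stood at 0.16 (0.07 to 0.26), and of 10 elastic fibre genes 1 was past the fold (Ltbp1, downward). None of 11 collagens and none of 15 heat shock genes was past it.

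The Hgf pair was thinner, with 160 genes tested over 16 and 18 cells. In the iPCKO library 22 genes were higher, 13.8% of those tested, and 20 lower, 12.5%, and the median ratio was 0.15. Metallothioneins, small metal-binding proteins, led the higher side. Mt1 (chr8:94905710-94906955) gave 5 UMIs, or 123 CPM, in the control and 185 UMIs, or 5235 CPM, in the iPCKO library, a log2 ratio of 5.41 (4.16 to 7.05). Mt2, its neighbour at chr8:94898819-94900207, gave 0 and 116 UMIs. With 3 UMIs in the control library taken as the floor it was 44.4-fold higher, a log2 ratio of 5.47. The interval of that ratio began at 5.15 and had no upper end. A single iPCKO cell held 73 of the Mt1 and 58 of the Mt2 UMIs, and without it the log2 ratios were 4.8 and 4.58.

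Glul, Txnip, Galnt15, Klf9 and Timp3 were also among the 12 ranked highest. Glul, glutamine synthetase, gave 11 and 83 UMIs (3.12, interval 2.2 to 4.17), Txnip, an inhibitor of thioredoxin, gave 9 and 60 (2.94), and Galnt15, a glycosyltransferase, gave 8 and 55 (2.98). Klf9, a glucocorticoid-responsive factor, gave 24 and 66 UMIs (1.66, 0.97 to 2.4), and Timp3, a metalloproteinase inhibitor, gave 52 and 167 (1.88, 1.43 to 2.36). All 3 tested genes of the glucocorticoid response list (Klf9, Mt1 and Mt2) were past the fold upward. The whole list of 14 summed to 1597, 1884, 1403 and 13045 CPM. Members below the minimum count showed UMIs of 1 and 14 for Ddit4, 0 and 17 for Pdk4 and 1 and 11 for Angptl4. Clock genes, none of which reached 50 UMIs, summed to 394, 672, 591 and 1641 CPM, and Nr1d1 (Rev-erb alpha) gave 2 and 20 UMIs in the Hgf pair.

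Most of these genes were higher in the Hgf iPCKO library as a whole. In all other barcodes the log2 ratios were 2.08 for Mt1, 2.47 for Mt2, 1.58 for Glul, 1.94 for Txnip, 2 for Galnt15 and 0.97 for Klf9. Map1b (a microtubule-associated protein, 16 and 50 UMIs, log2 1.84) and Apoe (apolipoprotein E, 14 and 42, 1.79) had ratios of -0.25 and -0.22 there. In barcodes of 10 to 100 UMIs the ratios of the first 6 were 2.06, 2.26, 1.27, 1.69, 2.13 and 0.69. With 1 library per genotype, the genotype and the library cannot be told apart.

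**Figure D5:**
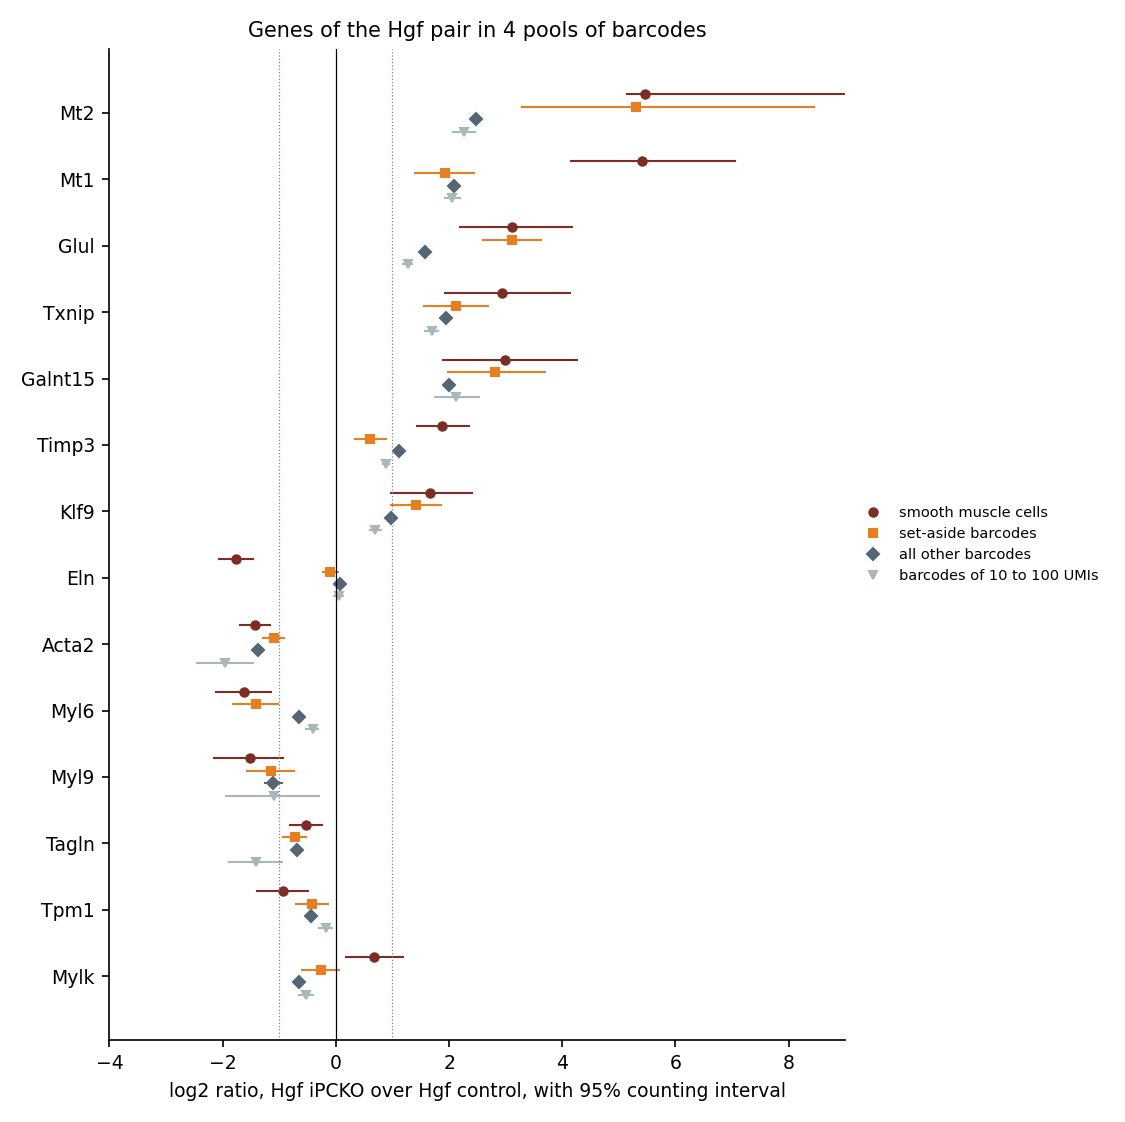
Log2 ratio of Hgf iPCKO over Hgf control for 14 genes with conditional exact 95% intervals (the Mt2 interval of smooth muscle cells has no upper end and its point is a lower bound), in smooth muscle cells, set-aside barcodes, all other barcodes and barcodes of 10 to 100 UMIs. Mt1, Mt2, Glul, Txnip and Galnt15 lie above 1 in all 4 pools, and Eln lies below -1 in smooth muscle cells alone among the 4.

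Elastin was lower in the Hgf iPCKO cells. Eln gave 476 UMIs, or 11719 CPM, in the control and 122 UMIs, or 3452 CPM, in the iPCKO library, a log2 ratio of -1.76 (-2.06 to -1.47), and the median cell held 14 and 2 UMIs. The cells overlapped, with the lowest control cell at 11.4 and the highest iPCKO cell at 168 Eln UMIs per 10000. The ratio was -0.1 in set-aside barcodes, 0.07 in all other barcodes and -1.18 in pericytes. In each library 3 cells held much of the Eln, 63.7% of the 476 and 70.5% of the 122 UMIs. Fbln5 gave 5 and 0 UMIs and Mfap4 10 and 2, too few to compare. Col3a1, a fibrillar collagen, was lower too, at 69 and 21 UMIs (-1.52, -2.29 to -0.79).

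Of 16 contractile genes tested, none was past the fold upward and 4 were downward, 12 ratios lay below 0, and the median was -0.41 beside 0.15 over all genes. The median was -0.07 with at least 4 of 5 muscle genes, where the iPCKO library holds 2 cells, -0.08 with 0 UMIs of both limited sets and -0.72 at a mitochondrial limit of 15%. The 4 were Acta2 (499 and 161 UMIs, -1.43, -1.7 to -1.17), Myl9 (102 and 31, -1.52), Myl6 (165 and 46.65 estimated UMIs, -1.62) and Actn1 (52 and 22, -1.04). The muscle genes per cell differed between the libraries, and the part of this was not tested. In the 5 control and 16 iPCKO cells with 3 of them, Acta2 was 7740 and 4316 CPM, short of the fold. Myl9 was 2125 and 793 CPM there. In the 11 and 2 cells with 4 or 5, Acta2 was 13166 and 6536 CPM and Myl9 2586 and 1569 CPM. In set-aside barcodes Acta2, Myl9 and Myl6 had ratios of -1.1, -1.14 and -1.41, and in all other barcodes -1.37, -1.11 and -0.65. Mylk ran against them at 0.68 (0.18 to 1.18), and Tagln stood at -0.53 (-0.81 to -0.25). Itga8, the integrin alpha chain of smooth muscle, gave 38 and 5 UMIs, under the minimum count. Tmsb4x (thymosin beta 4, which binds actin monomers) and Crip1 (a LIM protein) were also past the fold downward, at -1.54 and -1.82.

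The remaining genes with the lowest ratios of the Hgf pair, Lyz2, Cxcl15, Sftpc, Scd1, Sftpb and Sftpa1, are genes of alveolar type 2 cells and macrophages, and 1 control cell held nearly all of their UMIs. Without that cell the ratios of Sftpc and Cxcl15, -4.89 and -5.74, were -0.23 and -0.84.

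The 2 control libraries come from lungs without a deletion, but they also differ in depth and in the minimum of UMIs per barcode, and the study used 2 kinds of capture beads that the sources used here do not assign to samples. Hgf control over Bdnf control had 20 genes higher and 37 lower past the fold of 332 tested, 17.2%, with a contractile median of -0.47 over 27 genes. The Bdnf and Hgf pairs, each with its own 1 of these 2 controls, had 6.52% of 1196 and 26.2% of 160 tested genes past it. Since the number of UMIs behind these sets differs, the 3 percentages cannot be ranked. Of all genes 158 were tested in both pairs. Mt2 and Scgb1a1 were past the fold upward in both pairs, S100a6 downward in both, and 7 genes in opposite directions. These calls did not hold throughout. Scgb1a1 stood at 0.8 in the Bdnf pair and 1.83 in the Hgf pair without its top cell, and at -0.02 in the Hgf pair with at least 4 of 5 muscle genes. Mt2 stood at -0.13 in the Bdnf pair with at least 2 of 5, and S100a6 at -0.13 there without the limit on Hhip, Aspn, Higd1b and Kcnk3.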

How the data were processed

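According to their methods and the labels, the authors aligned reads with STARsolo (STAR 2.7.10a) to GRCm39 with Gencode annotation, kept all barcodes, and divided reads with several matches among genes by expectation maximization, so the deposited matrices hold estimated counts of UMIs per gene and barcode, without normalization. The methods name 1 Gencode release and the data availability statement another. Symbols that occur more than once and mitochondrial genes were left out of tested genes. No matrix column was without a sample.

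UMIs were summed over the cells of a library (Python 3.11.15, numpy 2.4.6, scipy 1.17.1, pandas 2.3.3), divided by their total to give CPM, and compared as log2 ratios with conditional exact 95% intervals. For these intervals sums were rounded. With 1 library per genotype no test was made, and a fold of 2 among genes with at least 50 UMIs stands in for a call. Comparison pericytes needed 3 of Higd1b, Kcnk3, Gucy1a1, Cox4i2, Lipg and Trpc6, and myofibroblasts 3 of Hhip, Aspn, Tgfbi, Egfem1, Fgf18 and Wnt5a. Named genes are the 12 highest and lowest per comparison by the interval end nearest 0, members of gene lists, and the targets. The members and lists were chosen with earlier results of these data known. Doublets stayed in, and a Scrublet run (scanpy 1.11.5) was an alternative. Cells were clustered per pair by Leiden. The interval script was tested on simulated data. Alternatives changed the marker number, depth and mitochondrial limits, caps on other markers, scaling, count minimum and fold.

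Library totals were 169814433, 186701379, 73446420 and 69403166 UMIs, spread over all barcodes. The 130 cells hold 35339 to 277606 UMIs per library, which limits precision. The cortex libraries and the authors' own comparisons were not used here. A gene of the contractile lists is not reported here.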

Additional observations from a re-analysis of the deposited data

Results flagged for a closer look

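In 7 genes the 2 pairs lay past the fold in opposite directions in the smooth muscle cells, and the difference between pairs was not tested. The gaps between the Bdnf and Hgf log2 ratios were 7.05 for Cxcl15, 5.83 for Sftpb, 6.65 for Lyz2, 5.98 for Sftpa1, 7.03 for Sftpc, 5.89 for Scd1 and 3.37 for Egr1. The first 6 are genes of alveolar type 2 cells and macrophages, and 1 Hgf control cell and 3 Bdnf iPCKO cells held most of the surfactant UMIs. Egr1, an immediate-early factor, was higher in the Bdnf iPCKO library (49 and 532 UMIs, log2 1.84) and lower in the Hgf iPCKO library (50 and 15 UMIs, log2 -1.54). No group had enough libraries to look for a library apart from the rest.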

How the results depend on the processing

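No paired analysis was possible because each group holds 1 library and the labels give no replicate numbers. Of 1568 gene ratios recomputed under other settings, over 112 main values, 1304 stayed within the main counting interval. Another 231 lay outside it and 33 reversed. Of 224 gene ratios under settings chosen after seeing the data the counts were 192, 23 and 9. A change of sign was counted as reversed only for genes past the fold in the main values. The other counts can thus include genes short of the fold that changed sign. Without the limit on Hhip, Aspn, Higd1b and Kcnk3 the share of cells was 1.34%, 1.38%, 0.532% and 0.247%. With 0 UMIs of both sets it was 0.0776%, 0.109%, 0.0639% and 0.0569%. With at least 4 of 5 muscle genes it was 0.189% in the Bdnf iPCKO and 0.0126% in the Hgf iPCKO library, with at least 2 it was 0.404% in the Bdnf iPCKO, 0.192% in the Hgf control and 0.284% in the Hgf iPCKO library, and with minimum depths of 3000 and 1400 UMIs it was 0.211% in the Bdnf iPCKO library. Genes past the fold, higher and lower, numbered in the Bdnf pair 102 and 50 with at least 2 of 5, 16 and 4 at a common depth per cell, 344 and 156 from 20 UMIs, 9 and 1 from 200 UMIs and 160 and 105 at a fold of 1.5. There 229 were lower without the limit and 21 higher with 0 UMIs of both sets. In the Hgf pair they numbered 52 and 33 with at least 2 of 5, 59 and 103 without the limit, 9 and 11 with 0 UMIs, 2 and 6 at a common depth, 86 and 86 from 20 UMIs, 2 and 7 from 200 and 49 and 39 at a fold of 1.5. There 3 were higher with at least 4 of 5 and 11 lower when each gene had to stay past the fold without its top cell. The contractile median of the Bdnf pair was 0.3 without the limit.

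Reversed log2 ratios of the Bdnf pair without the limit were Fos -0.26, Egr1 -0.53, Junb -0.66, Gpc3 -0.02, Nr4a1 -0.37, Ltbp1 0.06, Prss23 0.04, Cped1 0.17, Klf4 -0.33, Atp2b4 -0.07, Ccn1 -0.17, Fosb -0.31, Ier2 -0.21, Dusp1 -0.22, Btg2 -0.82 and Thbs1 -0.57. With at least 2 of 5 they were Junb -0.15, Gpc3 -0.22, Klf4 -0.03, Igfbp4 -1.04, Mt2 -0.13 and Thbs1 -0.27, and Thbs1 was -0.36 with at least 4 and -0.7 with 0 UMIs of both sets. Lyz2 was -0.79 with doublets removed and -0.83 without its top cell. Without cells of 100 or more epithelial UMIs Sftpc was -0.07, Sftpa1 -0.06, Sftpb -0.58 and Lyz2 -0.76, and Sftpb was -0.02 at a common depth. In the Hgf pair Scgb1a1 was -0.02 with at least 4 of 5. At a mitochondrial limit of 15% Lyz2 was 0.46, Sftpc 0.6 and Sftpa1 0.31, and without the deepest cells Lyz2 was 0.75, Sftpb 0.01 and Sftpa1 0.6. Lyz2 was 0.64 and Sftpa1 0.48 both without cells of 100 epithelial UMIs and without the top cell. The cause of these shifts was not tested, apart from the smaller counts that fewer cells or a higher minimum leave by construction.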
